A study of Mus musculus with 46 samples.

Results

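Heat shock proteins and chaperonins were followed in single mouse ovarian follicles during the first hours after an ovulatory stimulus. The set holds 40 named genes: 12 stress-inducible chaperones, 11 constitutive chaperones and their partners, 4 cochaperones of HSP90, 3 mitochondrial chaperones, 8 subunits of the cytosolic chaperonin CCT and 2 heat shock factors. Of these, 39 had a row among the 25147 genes of the count table. Cct6a had none, and only the sequence before its start was searched. Of the 39, 37 passed the filter on low counts among 8629 genes tested. Hspa1b and Cryab did not pass it and are described by their counts.

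The follicles came from CD-1 mice, an outbred stock. Each grew alone in alginate, a gel that holds the follicle's shape, for 8 days in medium with recombinant FSH at 10 mIU/ml. Alginate lyase freed the antral follicles from the gel, and ovulation was then triggered in maturation medium. That medium held hCG (1.5 IU/ml), a hormone that stands in for the surge of luteinizing hormone, together with EGF (10 ng/ml), recombinant FSH (10 mIU/ml) and serum (10%). The groups are 9 follicles frozen at 0 h and, after hCG, 13 frozen at 1 h, 13 at 4 h, and 11 at 8 h. Batch 1 holds 10 of the follicles at 1 h, 10 of those at 4 h and all 11 at 8 h. Batch 2 holds all 9 at 0 h, 3 at 1 h and 3 at 4 h. In the labels, the descriptions of 5 libraries at 0 h, and of 0 at later times, end in _ds, which the labels do not explain. No group without hCG at the later times is named in the labels, and follicles are not tied to animals there, so each comparison is between times and its p-value measures the spread between follicles.

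Chaperones hold other proteins while they fold, refold or are degraded. HSP70 proteins bind short unfolded stretches in a cycle driven by ATP, J proteins (the Dnaj genes) bring them substrates and start that cycle, and BAG and HSP110 proteins exchange the nucleotide and end it. HSP90 acts later, on steroid receptors and kinases among others, with cochaperones such as Stip1 and Fkbp4, and steroid receptors are central to the preovulatory follicle. Hspd1 and Hspe1 form the folding chamber of mitochondria, and CCT is the ring that folds actin and tubulin. After heat or proteotoxic stress the factor Hsf1 binds repeats of a short sequence, the heat shock element, before the inducible genes.

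The library totals ranged from 241442 to 5185044 counts, and the median total was 3286107 at 0 h, 730895 (1 h), 1432395 (4 h) and 1755429 (8 h). Levels are given as CPM, a count divided by the library's total over the 8629 genes tested and scaled up. TMM factors, which keep a few dominant genes from setting the scale, were applied. Genes without a single count in the 6 batch 2 libraries after hCG, yet counted in batch 1, numbered 3332. They took 22.6% to 46.2% of the counts at 0 h and at most 0.0667% later, and 0 of the 39 members with a row were among them. The labelled tissue was checked with markers of granulosa cells, the main cells of a follicle. The 8 markers, mostly Inha and Inhba, summed to 18541 to 56402 CPM at 0 h and 8946 to 18517 CPM at 8 h. These groups narrowly do not overlap, and they differ in batch as well as in time. Amh had a median of 0 CPM at every time. The 9 oocyte markers summed to 3.27 to 120 CPM over the 46 libraries. Smooth muscle markers (6 genes) summed to 27.0 to 475 CPM at 0 h and 482 to 2414 CPM at 1 h, mostly Acta2. Leukocyte markers (5 genes, mostly Lyz2) summed to 11.2 to 171 CPM at 0 h, 1.11 to 307 CPM at 1 h, 0 to 73.1 CPM at 4 h and 0 to 61.8 CPM at 8 h, and of the 5 Ptprc was at 0 in all libraries at 1 h. In libraries from whole follicles, fewer cells of a type and less RNA per cell cannot be told apart, and the part of these markers in the members' values was not tested.

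The heat shock element was looked for in the 250 bases before each start of a gene (RefSeq, GRCm38.p6). Of the 40 members, 33 were searched. A gene can have several starts (32851 over 27025 genes), and a match before any of them counts. Pairs of units written GAANNTTC or TTCNNGAA, each of which reads the same on both strands, were found before 12 of 33 members and before 14.55% of 27025 genes. Runs of 3 units, GAANNTTCNNGAA or TTCNNGAANNTTC, which contain such pairs, were found before 3 of 33 members and before 0.5143% of all genes. A match is a description of these letters, not a bound site. By class, pairs were before 6 of 10 stress-inducible, 2 of 2 mitochondrial and 2 of 7 CCT members searched. They were before 1 of 9 constitutive members and 1 of 4 HSP90 cochaperones. The CCT genes searched include Cct6a and not Cct4, and the mitochondrial ones leave out Hspa9.

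Sequences are shown for the 3 members with 3 units and for members with a pair whose time courses are described in full. They run 5′ to 3′ on each gene's strand, with the units in capitals. Hspd1 and Hspe1 lie head to head, so their lines are the same stretch of chr1:55088053-55088082 read from each strand. The stretches of Hspd1, Hspe1, Dnajb6, Hsph1 and Cct5 overlap an annotated exon of any gene, on either strand, in GENCODE M21, and the other 3 do not. Those of Hspd1, Dnajb6 and Hsph1 lie inside the gene as annotated there. Those of Hspe1 and Cct5 lie upstream of it. The other stretches are chr5:29735846-29735870 (+) for Dnajb6, chr3:152193846-152193874 (−) for Dnajb4, chr5:149636356-149636375 (−) for Hsph1 and chr15:31601867-31601886 (−) for Cct5. For Dnajb4 the match is before a start inside the gene, and its other window, chr3:152210084-152210333 (−), had 0 pairs. Hspd1 and Cct5 also have another start without a pair. The stretches for Hspa1a and Hspa1b, chr17:34972157-34972275 (−) and chr17:34959239-34959357 (−), end at the gene's start and show how alike these copies are.
Hspd1: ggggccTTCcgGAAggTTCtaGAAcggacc
Hspe1: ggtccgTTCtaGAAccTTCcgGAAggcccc
Dnajb6: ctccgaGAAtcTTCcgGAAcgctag
Dnajb4: ttcgttcgttcgctgTTCtaGAAagtaca
Hsph1: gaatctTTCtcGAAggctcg
Cct5: ggccgaTTCcaGAAgctact
Hspa1a: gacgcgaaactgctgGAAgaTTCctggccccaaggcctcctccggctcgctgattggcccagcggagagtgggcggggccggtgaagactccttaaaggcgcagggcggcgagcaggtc
Hspa1b: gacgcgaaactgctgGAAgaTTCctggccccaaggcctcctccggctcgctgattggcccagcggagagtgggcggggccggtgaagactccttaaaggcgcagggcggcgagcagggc
Hspa1a and Hspa1b agree at 247 of the 250 bases before their starts, and 58.8% of the 50-base stretches of the Hspa1a transcript also occur in Hspa1b, so reads can be split between them.

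Members changed with time and did so in different directions, with a first group of J and BAG proteins highest at 1 h and a broader group, with the mitochondrial chaperones and CCT, highest at 4 h. Over the 4 times together, 35 of 37 members changed, beside 79.8% of all genes tested, and the exceptions were Hspa2 and Hspa14. Over the 10 libraries left out in turn the count was 33 to 35. Hspb1 was lost without 4 h replicate 11, 4 h replicate 13 or 8 h replicate 4, and also without the _ds libraries, and Hsf2 without 4 h replicate 11 or 13, 0 h replicate 3, or 1 h replicate 11 or 12. Both were also lost without the filter on low counts, and without the 3332 genes set apart above. Of the 35, the highest fitted time was 0 h for 2, 1 h for 7, 4 h for 21 and 8 h for 5. Among all genes that changed, 40.4%, 16.6%, 22.6% and 20.3% were highest at these times. The tests are edgeR's quasi-likelihood F test with terms for time and batch and Benjamini-Hochberg adjustment over all genes, with a call at an adjusted p under 0.05, and every adjusted p below comes from it unless another fit is named.

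**Figure D1:**
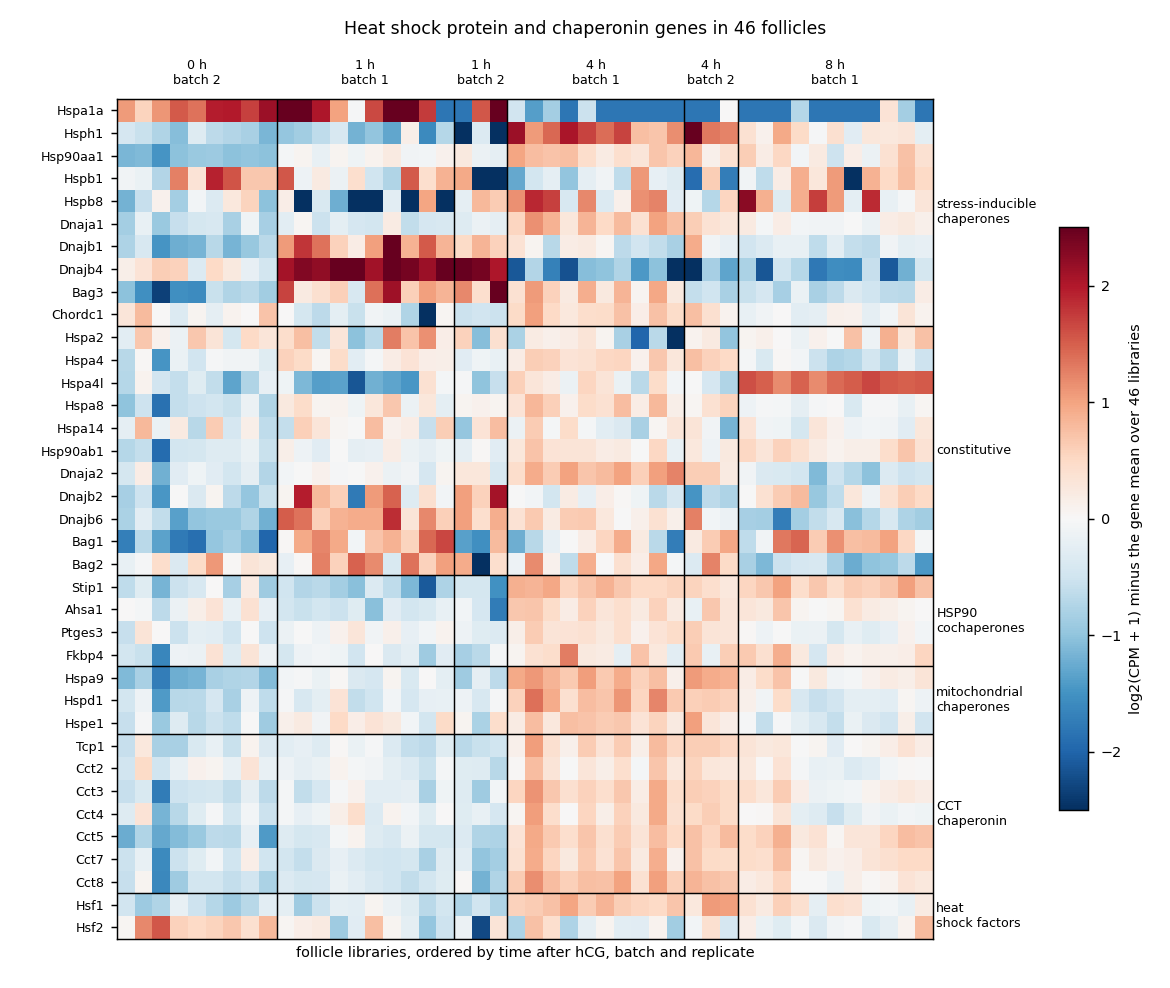
Level of the 37 tested members (rows, by class) in 46 follicle libraries (columns, by time after hCG, batch and replicate), as log2(CPM + 1) minus the gene's mean over the libraries, red above and blue below it. Dnajb4, Dnajb1, Bag3 and Dnajb6 are red at 1 h, the mitochondrial and CCT rows are red at 4 h, and Hspa4l is red at 8 h.

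At 1 h, 11 of 37 members were higher than at 0 h, beside 12.4% of all genes, and 3 were lower, beside 22.2%. The median log2 fold change of the members was 0.19, against -0.19 for all genes. The rises were 4 of 10 stress-inducible members, 4 of 11 constitutive members, 2 of 3 mitochondrial members and 1 of 7 CCT subunits. Overlap of groups, here and elsewhere, is of CPM in all libraries without a batch term. Most libraries at 1 h and 4 h are of batch 1, and all at 0 h of batch 2. In 5 of the 11, Hsp90aa1, Dnajb1, Dnajb4, Bag3 and Dnajb6, every library at 1 h lay above every library at 0 h, as was so for 2.47% of all genes. In batch 2 alone (3 follicles against 9) edgeR called 6 rises, those 5 and Dnajb2, and 0 falls (2 falls at an unadjusted p under 0.05). Where each of the 3 library sets (both plates of batch 1, and batch 2) had its own term in place of batch, the calls of Ahsa1, Cct5, Hspa9, Bag1 and Hspe1 were lost (adjusted p from 0.0564 to 0.286).

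At 4 h, 24 of 37 members were higher than at 0 h, beside 21.9% of all genes, and 4 were lower, beside 32.2%. Their median log2 fold change was 0.84, against -0.12 for all genes. The rises took in 5 of 10 stress-inducible, 6 of 11 constitutive, 3 of 4 cochaperone, 3 of 3 mitochondrial and 6 of 7 CCT members and Hsf1. In 15 of the 24 the groups did not overlap, as was so for 7.24% of all genes. In batch 2 alone 2 falls remained, Dnajb4 and Hspa1a, and among the rises Fkbp4 and Bag3 were not called. With the library set terms Fkbp4, Bag3 and Hspb1 were not called (adjusted p from 0.0532 to 0.282).

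From 1 h to 4 h, 25 of 37 members rose, beside 26% of all genes, and 6 fell, beside 28.9%, with a median of 0.57 against -0.06. All 7 CCT subunits, 3 of 3 mitochondrial chaperones and 4 of 4 cochaperones were among the rises. Within batch 1 the labels put the 4 h libraries on plate 2 and those of 1 h and 8 h on plate 1, so plate and time cannot be told apart in steps to or from 4 h there. In batch 2 alone (3 against 3), 7 rises (Hsph1, Hspa9, Hsf1, Tcp1, Cct5, Cct7 and Cct8) and 3 falls (Dnajb4, Dnajb2 and Bag3) were called. With the library set terms 21 of the 31 calls remained, and those of Dnajb1, Dnajb6, Dnaja2, Hspa8, Hsp90aa1, Hsp90ab1, Hspa4l, Hspb8, Fkbp4 and Hspe1 were lost (adjusted p from 0.0508 to 0.958).

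At 8 h, 13 of 37 members were higher than at 0 h, beside 17.5% of all genes, and 4 were lower, beside 27.6%, with a median of 0.43 against -0.15. From 4 h to 8 h, 20 members fell, beside 21.6%, and Hspa4l alone rose, beside 19.8%, with a median of -0.37 against 0.0046 for all genes. Compared with 1 h, 15 members were higher at 8 h, beside 23.2%, and 10 were lower, beside 25.9%. All 0 h libraries are of batch 2 and all 8 h libraries of batch 1, so the fit of 8 h against 0 h adds steps within batches. Where CPM at 8 h and 0 h do not overlap, time and batch cannot be told apart. Without the batch term 21 members were higher at 8 h than at 0 h. With the library set terms 11 members fell from 4 h to 8 h and 2 rose, Hspa4l and Dnajb2. In that fit 11 of the 21 calls of this step remained, and those of Tcp1, Cct2, Cct3, Cct8, Hspd1, Hspa8, Hsp90aa1, Dnaja1, Bag3 and Chordc1 were lost (adjusted p from 0.051 to 0.547), as were those of Hsf1, Bag1, Hsph1 and Cct7 at 8 h against 0 h (0.0771 to 0.887). Comparisons with 0 h share the same 9 follicles.

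**Figure D2:**
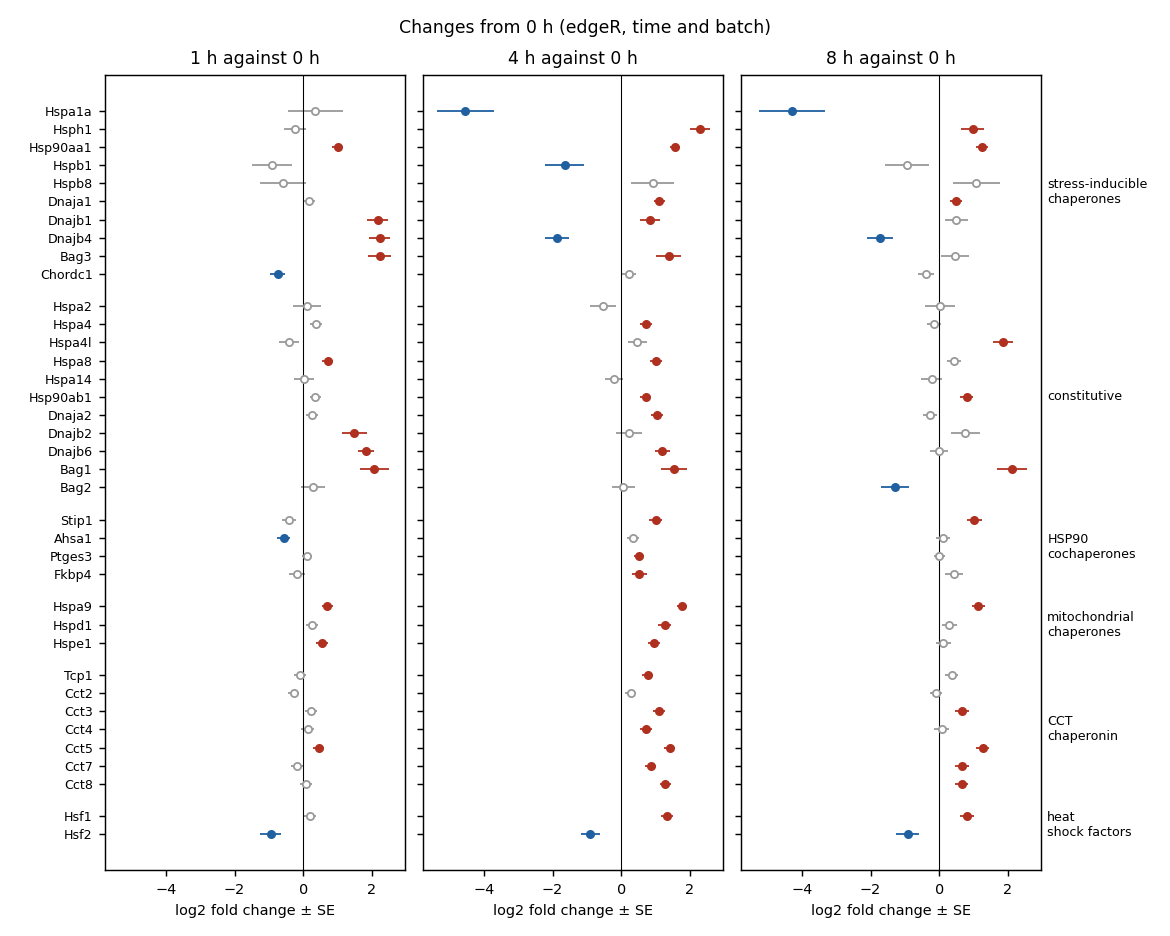
log2 fold change against 0 h with its SE for the 37 tested members at 1 h, 4 h and 8 h, by class, from the fit with time and batch. Filled points are called (red higher, blue lower) and open points are not, with 11 red points at 1 h, 24 at 4 h and 13 at 8 h.

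Among the stress-inducible members, the J proteins Dnajb4 and Dnajb1, the exchange factor Bag3 and Hsp90aa1 rose by 1 h. Dnajb4, on chromosome 3, read 6.83, 11.7 and 15.5 CPM (lowest, median and highest library) at 0 h, 42.9, 55.4 and 114 at 1 h, 0, 3.32 and 5.53 at 4 h, and 1.45, 3.71 and 6.95 at 8 h. All 13 libraries at 1 h were above all others, in both batches, and all 13 at 4 h were below all at 0 h. The rise was 4.70-fold (log2 2.23 ± 0.31, adjusted p = 1.34e-07), and the level at 4 h was 0.273 times that at 0 h (log2 -1.87 ± 0.34, adjusted p = 8.22e-06). From 1 h to 4 h Dnajb4 fell by 4.11 on the log2 scale (adjusted p = 3.64e-19).

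Dnajb1, which hands unfolded proteins to HSP70, read 16.6, 24.4 and 36.4 CPM at 0 h and 55.0, 88.8 and 379 at 1 h. Its rise was 4.52-fold (log2 2.18 ± 0.31, adjusted p = 2.52e-07). At 4 h it read 26.9, 45.3 and 93.1 CPM, still higher than at 0 h (log2 0.84 ± 0.29, adjusted p = 0.0122), a call that was lost without 4 h replicate 11 (log2 0.55, adjusted p = 0.115). At 8 h, with 30.4, 40.1 and 45.4 CPM, it was not called against 0 h (log2 0.50 ± 0.34, adjusted p = 0.233).

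Bag3, which links HSP70 to small heat shock proteins and autophagy, read 4.28, 12.2 and 17.2 CPM at 0 h and 19.1, 47.0 and 161 at 1 h (4.70-fold, log2 2.23 ± 0.34, adjusted p = 1.08e-06). Without 1 h replicate 13 the log2 value was 1.55. At 4 h the batches differed. The 10 libraries of batch 1 read 26.9 to 55.0 CPM, and the 3 of batch 2 read 14.1, 16.6 and 17.9 CPM, with no overlap. The step from 1 h to 4 h was -0.38 in batch 1 alone (adjusted p = 0.123) and -2.33 in batch 2 alone (adjusted p = 0.0113). The difference between these steps was tested for 33 members and was called for Bag3 alone (log2 -1.97 ± 0.56, adjusted p = 0.0367), beside 5.09% of 5820 genes. It was not called without any one of 1 h replicate 13 and 4 h replicates 11, 12 and 13.

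**Figure D3:**
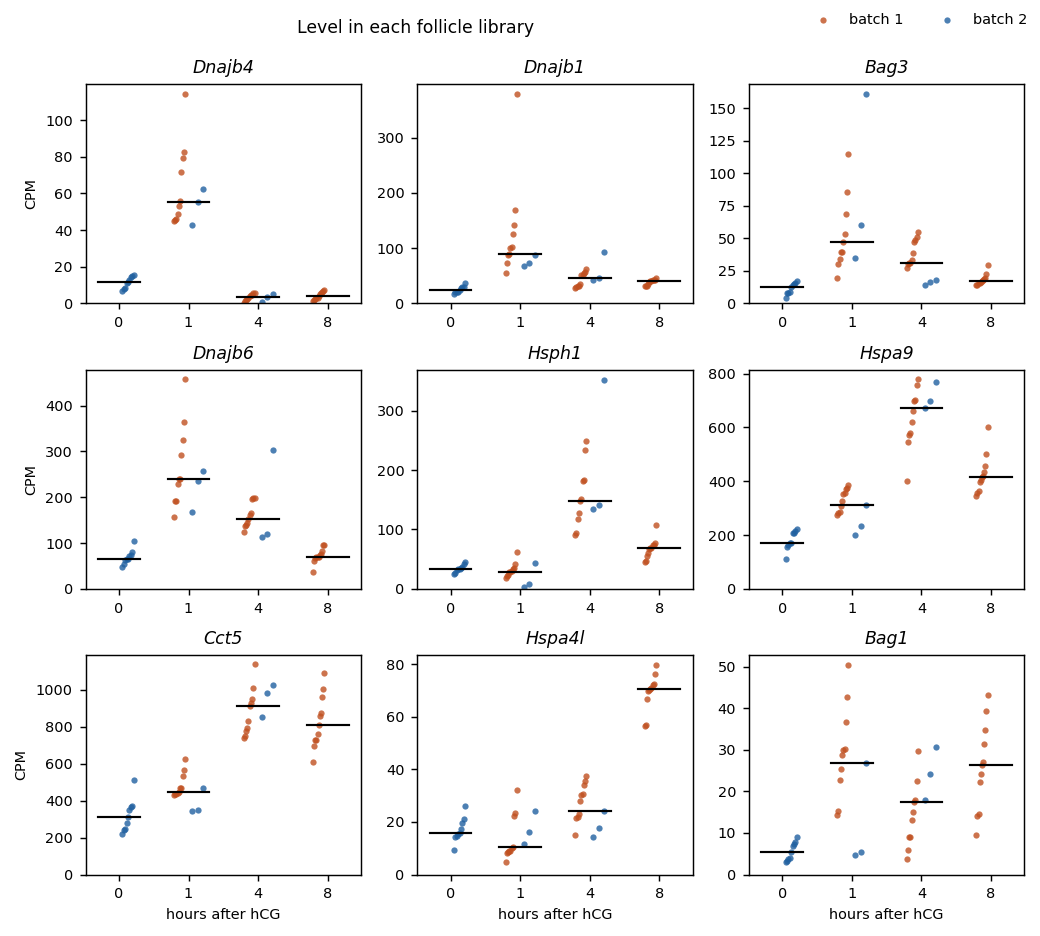
CPM of 9 members in every library (points, batch 1 orange, batch 2 blue) by hours after hCG, with the median of all libraries of a time as a bar. Dnajb4, Dnajb1, Bag3 and Dnajb6 are highest at 1 h, Hsph1, Hspa9 and Cct5 at 4 h, and Hspa4l at 8 h, while Bag1 is low in 2 of the 3 batch 2 libraries at 1 h.

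The inducible HSP70 genes Hspa1a and Hspa1b were at low levels, lowest at 4 h and 8 h. Hspa1a was counted in 9 of 9 libraries at 0 h (4.11, 9.00 and 14.3 CPM) and in 11 of 13 at 1 h (0, 10.7 and 54.5 CPM). It was counted in 5 of 13 at 4 h (at most 2.49 CPM) and in 3 of 11 at 8 h (at most 3.40 CPM). No library at 4 h or 8 h reached the lowest at 0 h, and those at 1 h overlapped both. The pooled counts gave 20.2-fold less at 4 h than at 0 h (95% exact interval 10.8 to 42.8, counting error only, 201 and 10 counts). In the fit the values were -4.55 ± 0.83 (adjusted p = 8.00e-06) at 4 h and -4.29 ± 0.96 at 8 h (adjusted p = 2.88e-04), and from -5.37 to -3.89 at 4 h and from -5.03 to -3.45 at 8 h without 1 of the batch 2 libraries after hCG (1 h replicates 11 and 13 and 4 h replicate 13 moved them by over 1.5-fold).

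Hspa1b, its near copy on chromosome 17, had 46 counts over the 9 libraries at 0 h, 83 over 13 at 1 h, 8 over 13 at 4 h and 15 over 11 at 8 h. Scaled for depth, the pooled level at 1 h was 5.02 times that at 0 h (95% exact interval 3.46 to 7.37, counting error only). The same ratio for Hspa1a was 1.83 (1.46 to 2.29). The batch 2 libraries at 1 h read 1.33, 2.31 and 26.8 CPM of Hspa1b. Its rise at 1 h was called by DESeq2 and limma on log2(TPM + 1), and not by edgeR without the low-count filter or limma on log2(TPM + 0.1). Since the transcripts share sequence, neither gene's level is certain on its own. Cryab, a small heat shock protein, shares up to 252 exon bases with Hspb2 on the other strand, and the libraries keep no strand. Its 0 counts over the 9 libraries at 0 h allow up to 0.137 CPM. It had 3 counts at 1 h, 21 at 4 h and 16 at 8 h, with at most 3.32 CPM in a library.

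Hsph1 and Dnaja1 were called higher at 4 h and not at 1 h, and Hsp90aa1 was called higher at both times. Hsph1, an HSP110 protein that refolds aggregates with HSP70, read 24.8, 33.3 and 44.4 CPM at 0 h, 2.68, 28.0 and 61.9 at 1 h, 91.4, 148 and 352 at 4 h, and 46.0, 68.5 and 108 at 8 h. No library at 4 h overlapped those at 0 h or 1 h. It was 4.92-fold higher at 4 h than at 0 h (log2 2.30 ± 0.28, adjusted p = 2.17e-09), and 5.80-fold higher than at 1 h (log2 2.54 ± 0.23, adjusted p = 2.73e-13). At 8 h it remained 1.97-fold above 0 h (adjusted p = 0.0178), a call lost without 4 h replicate 11 (adjusted p = 0.105).

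Hsp90aa1, the inducible HSP90, read 231, 317 and 344 CPM at 0 h, 555, 629 and 761 at 1 h, 704, 962 and 1275 at 4 h, and 453, 760 and 1077 at 8 h. All libraries after hCG were above all at 0 h. The rises from 0 h were 2.00-fold at 1 h (log2 1.00 ± 0.15, adjusted p = 1.27e-06), 2.98-fold at 4 h (adjusted p = 3.61e-12) and 2.37-fold at 8 h (adjusted p = 1.07e-07). Dnaja1, a J protein of the cytosol, shares up to 608 exon bases with Smu1 on the other strand, so reads there cannot be told apart. It had medians of 445, 534, 1024 and 658 CPM in the order of the times. It rose 2.17-fold by 4 h (log2 1.12 ± 0.15, adjusted p = 3.76e-08) and fell by 0.64 on the log2 scale from 4 h to 8 h, a fall not called with the library set terms (adjusted p = 0.432).

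The remaining inducible members, Chordc1, Hspb1 and Hspb8, differed in their time courses. Chordc1, which binds HSP90, fell by 0.74 at 1 h (SE 0.22, adjusted p = 0.00661), rose by 0.97 from 1 h to 4 h and fell by 0.60 from 4 h to 8 h, on the log2 scale. Its falls at 1 h (adjusted p = 0.34) and from 4 h to 8 h (0.0884) were not called by limma on log2(TPM + 1), and the latter not with the library set terms (0.252). Its library at 1 h replicate 9 read 3.56 CPM, while its other libraries of that time reached 40.3. The small heat shock protein Hspb1 had medians of 8.69, 6.12, 3.85 and 7.56 CPM at 0 h, 1 h, 4 h and 8 h. It was called lower at 4 h only (log2 -1.64 ± 0.57, adjusted p = 0.0127), a call lost without 4 h replicate 11 (log2 -1.23, adjusted p = 0.0791) or the _ds libraries (log2 -0.84, adjusted p = 0.308) and at -2.55 without 4 h replicate 12. Hspb8, the partner of Bag3, had medians of 3.63, 3.495, 7.48 and 9.80 CPM. It was called higher at 4 h than at 1 h (log2 1.51 ± 0.48, adjusted p = 0.0064), but was at -0.47 in batch 2 alone and -0.49 with the library set terms, where it was not called. It was also higher at 8 h than at 1 h (log2 1.68, adjusted p = 0.00415), and it did not pass the filter in plate 1 alone.

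Constitutive members included early and late genes. Dnajb6, a J protein that holds back aggregation, shares up to 249 exon bases with Gm5129 on the other strand. Dnajb6 read 48.7, 66.0 and 104 CPM at 0 h, 157, 239 and 458 at 1 h, 113, 152 and 303 at 4 h, and 37.1, 70.0 and 95.6 at 8 h. All libraries at 1 h and 4 h lay above all at 0 h, and all at 8 h lay below all at 1 h and 4 h. It rose 3.56-fold by 1 h (log2 1.83 ± 0.22, adjusted p = 5.83e-09) and fell by 1.84 from 1 h to 8 h (adjusted p = 1.13e-12). Dnajb2, a J protein known from neurons, rose from 3.21, 6.83 and 11.2 CPM to 2.39, 16.5 and 48.2 CPM at 1 h (log2 1.49 ± 0.37, adjusted p = 0.00142), with overlap.

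Bag1, an exchange factor of HSP70, had 3.10, 5.35 and 9.09 CPM at 0 h, 4.62, 26.8 and 50.4 at 1 h, 3.85, 17.4 and 30.7 at 4 h, and 9.40, 26.3 and 43.1 at 8 h. The 10 libraries of batch 1 at 1 h read 14.3 to 50.4 CPM, and those of batch 2 read 4.62, 5.33 and 26.8 CPM. The rise at 1 h was called over both batches (log2 2.07 ± 0.43, adjusted p = 1.73e-04), and neither in batch 2 alone (log2 1.01, adjusted p = 0.181) nor with the library set terms (0.90, adjusted p = 0.238). At 8 h, where the groups did not overlap, the value was 2.12 ± 0.45 (adjusted p = 1.26e-04), and 0.75 with the library set terms (adjusted p = 0.349). Bag2, which blocks degradation by Stub1, had medians of 42.2, 54.1, 40.4 and 19.8 CPM, and it was lower at 8 h than at each other time (log2 -1.29 ± 0.41 against 0 h, adjusted p = 0.00867). Against 0 h that call was lost without the _ds libraries (log2 -0.90, adjusted p = 0.128) and by limma on log2(TPM + 1) (adjusted p = 0.076), and limma on log2(TPM + 0.1) called none of the 3 (adjusted p from 0.0522 to 0.165).

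Hspa4l, an HSP110 protein best known from testis, was the 1 member called higher at 8 h than at 4 h. It read 9.19, 15.7 and 26.1 CPM at 0 h, 4.78, 10.6 and 32.0 at 1 h, 14.1, 24.2 and 37.3 at 4 h, and 56.4, 70.5 and 79.6 at 8 h. All 11 libraries at 8 h were above every other library. It was 3.64-fold higher than at 0 h (log2 1.86 ± 0.30, adjusted p = 1.54e-06) and 2.62-fold higher than at 4 h (log2 1.39 ± 0.18, adjusted p = 1.23e-08). Its relative Hspa4 did the opposite after 4 h, with medians of 135, 168, 218 and 111 CPM, a rise at 4 h (log2 0.72 ± 0.17, adjusted p = 5.31e-04) and a fall by 0.87 from 4 h to 8 h (adjusted p = 1.15e-06).

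Hspa8 and Hsp90ab1, the constitutive HSP70 and HSP90 of the cytosol, held most of the members' transcripts. In TPM, a level per transcript length from the deposited table, Hsp90ab1 was first and Hspa8 second of 39 members at each of the 4 times. Their median share of the members' summed TPM was 58.7% at 0 h, then 59.7% (1 h), 54.3% (4 h) and 60.9% (8 h). Hspa8 read 692, 1719 and 2296 CPM at 0 h, 2123, 2673 and 4037 at 1 h, 2603, 3301 and 4520 at 4 h, and 1938, 2466 and 2635 at 8 h.

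Hspa8 rose at 1 h (log2 0.71 ± 0.17, adjusted p = 0.00108) and at 4 h (1.01 ± 0.17, adjusted p = 2.24e-06), and its libraries at 4 h did not overlap those at 0 h. Hsp90ab1 read 1097, 3024 and 3720 CPM at 0 h and 4402, 5370 and 6763 at 8 h, with no overlap (log2 0.80 ± 0.19, adjusted p = 5.23e-04). At 1 h it was not called (log2 0.35 ± 0.16, adjusted p = 0.0874), though it was called without the _ds libraries (log2 0.69, adjusted p = 0.00979), without any one of 5 of the libraries left out in turn (adjusted p from 0.0281 to 0.0411) and with RLE factors (adjusted p = 0.0362). The TPM ratio of Hsp90ab1 to Hsp90aa1 had a median of 9.05 at 0 h (4.69 to 11.3), 5.99 at 1 h (4.62 to 7.27), 5.37 at 4 h (3.75 to 6.24) and 6.62 at 8 h (5.93 to 9.60). These ranges overlap between all times.

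Dnaja2, a J protein of the cytosol, had medians of 200, 241, 393 and 176 CPM, rose at 4 h (log2 1.04 ± 0.17, adjusted p = 1.65e-06) and fell by 1.32 from 4 h to 8 h (adjusted p = 2.34e-11) to below its level at 1 h. Hspa2, an HSP70 of male germ cells, stayed between 0 and 15.6 CPM, and Hspa14, an HSP70 of the ribosome, between 9.14 and 38.7 CPM. Neither was called in the fit with time and batch. Hspa2 was called from 4 h to 8 h by limma on log2(TPM + 1) and log2(TPM + 0.1), and by the former over the 4 times. It was also called from 1 h to 4 h without 1 h replicate 12 or 4 h replicate 12.

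The cochaperones of HSP90 were highest at 4 h or 8 h. Stip1, which passes clients from HSP70 to HSP90, read 48.2, 75.0 and 126 CPM at 0 h, 24.9, 65.1 and 86.4 at 1 h, 131, 162 and 214 at 4 h, and 148, 175 and 223 at 8 h. The libraries at 4 h and 8 h lay above all at 0 h and 1 h. It rose 2.69-fold from 1 h to 4 h (log2 1.43 ± 0.14, adjusted p = 3.34e-12) and was not called from 4 h to 8 h (log2 0.01 ± 0.14, adjusted p = 0.967). Ahsa1, which starts the ATPase of HSP90, fell by 0.57 at 1 h (SE 0.18, adjusted p = 0.0125), a call lost without 1 h replicate 13 (adjusted p = 0.0629), 4 h replicate 11 (adjusted p = 0.0709) or the _ds libraries (log2 -0.35, adjusted p = 0.22), and rose by 0.92 from 1 h to 4 h (adjusted p = 3.47e-08).

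Ptges3 (p23), which closes the HSP90 clamp, had medians of 443, 501, 674 and 485 CPM, rose at 4 h (log2 0.52 ± 0.13, adjusted p = 9.37e-04) and fell by 0.51 from 4 h to 8 h (adjusted p = 7.41e-05). Fkbp4, a partner of the progesterone receptor, had medians of 228, 205, 300 and 285 CPM, and its rise at 4 h (log2 0.53 ± 0.23, adjusted p = 0.0452) was lost without 1 h replicate 13 (adjusted p = 0.0852) or 4 h replicate 13 (adjusted p = 0.128).

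All 3 mitochondrial chaperones were higher at 4 h than at 0 h and 1 h. Hspa9 (mortalin, the mitochondrial HSP70, on chromosome 18) read 110, 171 and 221 CPM at 0 h, 199, 312 and 386 at 1 h, 400, 674 and 782 at 4 h, and 345, 417 and 601 at 8 h. All libraries at 4 h were above all at 0 h and 1 h. It was 1.63-fold higher at 1 h (adjusted p = 8.74e-04), 3.42-fold at 4 h (log2 1.78 ± 0.16, adjusted p = 2.75e-13) and 2.20-fold at 8 h (adjusted p = 2.08e-06).

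Hspd1 and Hspe1, the HSP60 and HSP10 of the chamber, are on chromosome 1 at 55077835-55088243 (−) and 55088132-55091307 (+) in GENCODE M21, and their first exons overlap by 112 bases. The libraries are not stranded, so reads there cannot be told apart. Hspd1 read 146, 250 and 357 CPM at 0 h, 253, 335 and 490 at 1 h, 513, 608 and 1005 at 4 h, and 259, 329 and 534 at 8 h. It rose at 4 h (log2 1.26 ± 0.18, adjusted p = 7.27e-08) and fell by 0.96 from 4 h to 8 h (adjusted p = 1.50e-07), a fall not called with the library set terms (log2 -0.70, adjusted p = 0.104).

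Hspe1 read 46.6, 59.3 and 88.8 CPM at 0 h, 50.8, 100 and 126 at 1 h, 101, 132 and 182 at 4 h, and 58.4, 69.5 and 99.2 at 8 h. Unlike its partner it was called at 1 h (log2 0.55 ± 0.18, adjusted p = 0.0167), a call lost without 1 h replicate 13 (adjusted p = 0.0715) or the _ds libraries (adjusted p = 0.0681), while Hspd1 was at 0.26 ± 0.18 (adjusted p = 0.262), and the difference between them was not tested. The TPM ratio of Hspe1 to Hspd1 had medians of 0.746, 0.865, 0.539 and 0.634 at 0 h, 1 h, 4 h and 8 h, within ranges that overlap.

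CCT subunits rose between 1 h and 4 h. The complex holds 1 copy of each subunit in each ring, and of its 8 genes 7 were measured. Cct5 (epsilon) read 221, 310 and 510 CPM at 0 h, 346, 447 and 624 at 1 h, 740, 915 and 1141 at 4 h, and 610, 810 and 1093 at 8 h. All libraries at 4 h and 8 h were above all at 0 h, and all at 4 h above all at 1 h. It was 2.66-fold higher at 4 h (log2 1.41 ± 0.16, adjusted p = 2.08e-10) and 2.42-fold higher at 8 h (adjusted p = 2.13e-07), and its small rise at 1 h (log2 0.45 ± 0.17, adjusted p = 0.0308) was lost without 4 h replicate 13 (adjusted p = 0.0611).

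Cct8 (theta) read 158, 327 and 511 CPM at 0 h and 633, 807 and 1094 at 4 h, with no overlap. It rose 2.45-fold (log2 1.29 ± 0.17, adjusted p = 9.79e-09) and fell by 0.64 from 4 h to 8 h (adjusted p = 8.96e-05). The rises of the others at 4 h against 0 h were 1.11 for Cct3, 0.86 for Cct7, 0.77 for Tcp1 and 0.71 for Cct4 on the log2 scale, and Cct2 (0.28 ± 0.16, adjusted p = 0.124) was not called, though it was without any one of 5 of the libraries left out in turn (adjusted p from 0.0255 to 0.0494). From 1 h to 4 h all 7 were called, from 1.47-fold for Cct2 to 2.29-fold for Cct8. By 8 h Cct5 and Cct7 (-0.14 and -0.19 from 4 h) were not called against 4 h, while Tcp1, Cct2, Cct3, Cct4 and Cct8 had fallen. With the library set terms the fall of Cct4 was called (log2 -0.93, adjusted p = 0.0259) and those of the other 4 were not (adjusted p from 0.051 to 0.246). Cct7, Cct8 and Tcp1 share exon bases with a gene on the other strand. Annotated pseudogenes are named after Cct3, Tcp1, Dnaja1, Hspa9, Hspd1, Hspe1 and Ptges3, and their part in the counts was not tested.

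The order of the subunits changed with time. In TPM, the medians at 0 h ran from 104 for Tcp1 to 199 for Cct7, and Cct2, Cct8, Cct4 and Cct5 lay between 171 and 189 with overlapping ranges. At 4 h they ran from 274 for Tcp1 and 346 for Cct2 to 684 for Cct8 and 698 for Cct5, and the ranges of Tcp1 (226 to 376) and Cct8 (584 to 837) did not meet. At 8 h Cct5 led with 663, ahead of Cct8 (479) and Cct7 (471), with ranges that overlap. Within a library, the highest subunit was a median of 1.96 times the lowest at 0 h (1.60 to 2.14), 2.17 times at 1 h (1.86 to 3.37), 2.59 times at 4 h (2.23 to 2.91) and 2.86 times at 8 h (2.51 to 3.499). The libraries at 4 h and 8 h lay above all at 0 h.

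**Figure D4:**
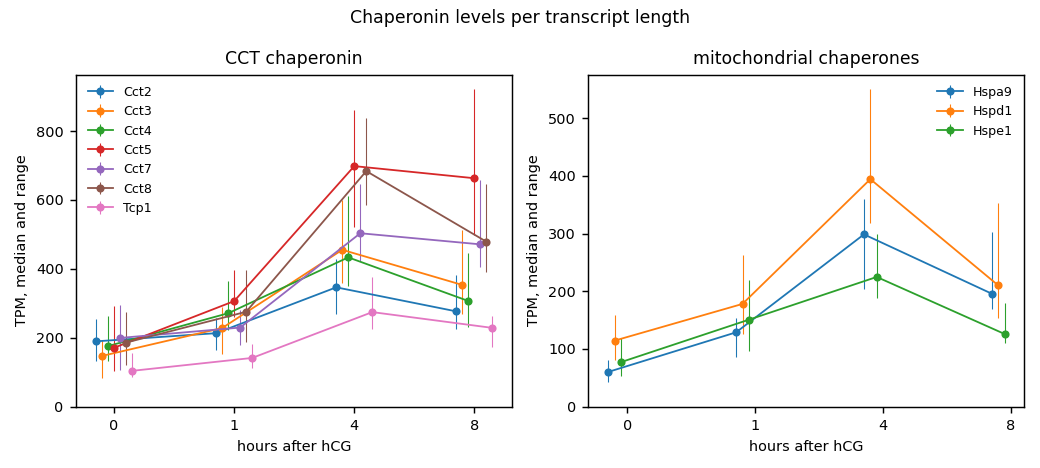
Level per transcript length (TPM) of the 7 measured CCT subunits and the 3 mitochondrial chaperones by hours after hCG, with points at the median, bars from the lowest to the highest library and lines joining the medians. At 0 h the CCT medians lie between 104 and 199 TPM and at 4 h between 274 and 698, and Hspd1 stays above Hspa9 and Hspe1.

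Between times, TPM medians are a description only, since the 3332 genes above take part of every 0 h total and lower the TPM of all other genes there.

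In the fit with time and batch the heat shock factors moved in opposite directions. Hsf1, which drives the stress response and is regulated mainly as a protein, read 12.03, 14.1 and 20.2 CPM at 0 h, 12.1, 16.8 and 24.4 at 1 h, 28.0, 37.0 and 49.8 at 4 h, and 19.9, 27.6 and 35.6 at 8 h. All libraries at 4 h were above all at 0 h and 1 h. It rose 2.54-fold (log2 1.34 ± 0.17, adjusted p = 2.95e-09). Hsf2, a factor of development and meiosis, had medians of 22.5, 13.3, 12.6 and 13.9 CPM and was called lower at 1 h (log2 -0.95 ± 0.30, adjusted p = 0.0134), 4 h (-0.90 ± 0.28, adjusted p = 0.00688) and 8 h (-0.92 ± 0.33, adjusted p = 0.0209). The groups overlap, and the call at 1 h was lost without 1 h replicate 11 (adjusted p = 0.0514), 1 h replicate 12 (0.0834) or 0 h replicate 3 (0.0501), as was the call at 8 h without any of these, 4 h replicate 11 or 8 h replicate 4 (adjusted p from 0.0585 to 0.106). Without the filter on low counts the calls of Hsf2 at 4 h and 8 h were lost, and without the 3332 genes set apart above the call at 8 h. In batch 2 alone Hsf2 was called neither at 1 h nor at 4 h.

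Summed over each class, the stress-inducible members gave 706, 888 and 1092 CPM (lowest, median and highest library) at 0 h, 1303, 1490 and 2213 at 1 h, 1838, 2358 and 2902 at 4 h, and 1282, 1556 and 2059 at 8 h. Hsp90aa1 and Dnaja1 make up most of that sum, so it hides the fall of Dnajb4 and Hspa1a. The constitutive class had medians of 5166, 7439, 9106 and 8221 CPM, the cochaperones 735, 847, 1231 and 995 CPM, the mitochondrial class 492.7, 740, 1408 and 806 CPM, and CCT 2012, 2344, 4286 and 3377 CPM. The libraries at 4 h lay above all at 0 h in all 5 classes. For CCT, the mitochondrial class and the cochaperones they also lay above all at 1 h.

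**Figure D5:**
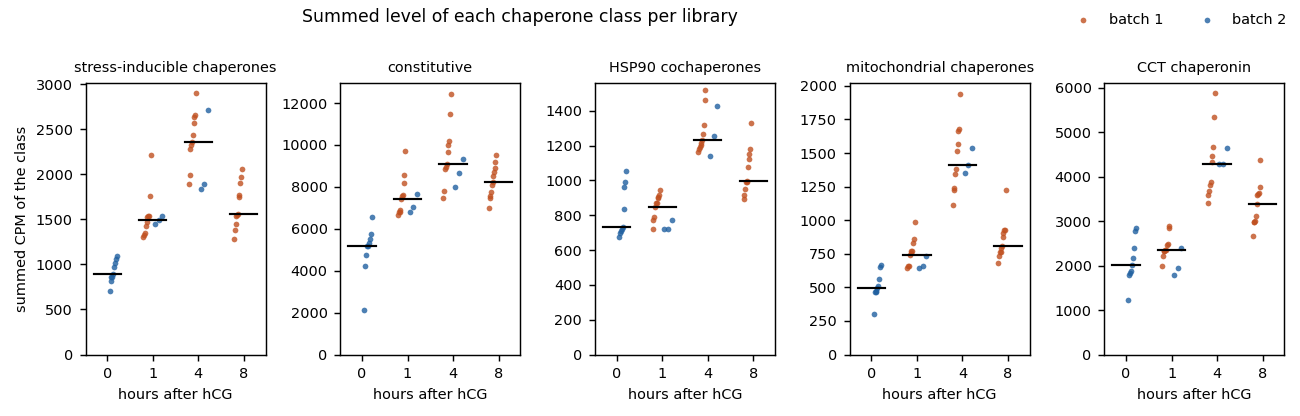
Summed CPM of 5 classes in every library (batch 1 orange, batch 2 blue) by hours after hCG, with the median of a time as a bar. The mitochondrial sum at 4 h (1112 to 1939 CPM) lies above all libraries at 0 h and 1 h, and the constitutive sum has 1 low library at 0 h (2130 CPM, replicate 3).

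Other genes of the same pathways, 51 from a list of prefoldin, further cochaperones, J proteins and mitochondrial quality control, were tested where they passed the filter (43). At 1 h, 1 of 43 rose, beside 12.4% of all genes, and 17 fell, beside 22.2%, with a median of -0.53 against -0.19. At 4 h 7 were higher than at 0 h, beside 21.9%, and 15 lower, beside 32.2% (median -0.30 against -0.12). At 8 h 3 were higher, beside 17.5%, and 12 lower, beside 27.6% (median -0.33 against -0.15). From 1 h to 4 h 18 rose, beside 26%, and 10 fell, beside 28.9% (median 0.35 against -0.06). From 4 h to 8 h 7 rose and 7 fell, beside 19.8% and 21.6%, and against 1 h 13 were higher and 8 lower at 8 h, beside 23.2% and 25.9%.

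The largest changes among them were in 8 genes. Unc45a, a myosin chaperone, rose most at 1 h (log2 1.37 ± 0.22, adjusted p = 4.85e-06), and Bag4 fell most (-2.08 ± 0.43, adjusted p = 1.70e-04). Ppid, a cyclophilin of the HSP90 complex, rose from 2.68, 28.8 and 39.2 CPM at 1 h to 72.4, 95.5 and 151 at 4 h (log2 1.95 ± 0.17, adjusted p = 5.99e-14) and fell most to 8 h (-1.65 ± 0.17). It was also the largest rise at 4 h against 0 h (1.18 ± 0.20). Fkbp5, a cochaperone of steroid receptors, moved the other way, from 26.2, 44.3 and 60.1 CPM at 0 h to 0, 7.61 and 16.6 at 4 h (log2 -2.61 ± 0.42, adjusted p = 1.08e-06), the largest fall of that comparison and of the step from 1 h (-1.64 ± 0.31), and to 26.7, 64.9 and 137 at 8 h (3.13 ± 0.30 from 4 h, adjusted p = 6.86e-12).

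Lonp1, a protease of the mitochondrial matrix, was the largest rise at 8 h, with 20.3, 43.1 and 60.4 CPM at 0 h and 135, 245 and 380 at 8 h (log2 2.55 ± 0.31, adjusted p = 4.19e-09), also against 1 h (2.11 ± 0.21). Pdcl, which assists CCT, fell most by 8 h against 0 h (-2.11 ± 0.44, adjusted p = 1.07e-04), and the prefoldin subunit Pfdn5 fell most against 1 h (-1.33 ± 0.14, adjusted p = 2.92e-11). The step from 1 h to 4 h differed between the batches for Bag6 (1.77 ± 0.39, adjusted p = 0.00775), the largest of 3 such differences among 37 tested.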

How the data were processed

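RNA of 46 single follicles was sequenced from Smart-Seq2 cDNA and Nextera XT libraries, which keep no strand, per the labels' protocols. The deposited gene counts were batch-adjusted by the authors with ComBat-seq, per the table's name, with settings not given in the sources used here, so a batch term was still fitted. The deposited TPM, computed by the authors from those adjusted counts per the table's name, were used for levels per length and as an alternative. The submitters' processing notes name HISAT2, Partek, DESeq2 and GRCm38, with no versions. A further 10 columns of each file could not be tied to any sample of the labels and were left out. No 2 libraries looked alike enough to be duplicates (lowest chi-square per gene 2.88 over 187 pairs).

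edgeR 4.0.16 (R 4.3.3) fitted the counts of all 46 libraries with TMM factors, its default filter on low counts, and terms for time and batch, adjusting p-values over 8629 genes (biological coefficient of variation 34%). The batch difference used a time by batch term at 1 h and 4 h. Alternatives were RLE factors, no filter, no batch term, a library set term, a replicate block, DESeq2 1.42.0, limma 3.58.1 on log2(TPM + 1) and log2(TPM + 0.1), single batches, fewer genes, thinned counts, and leaving out 10 single libraries in turn (the 6 of batch 2 after hCG and 4 others) or the 5 libraries at 0 h whose labels end in _ds. The comparisons with 0 h were also run on simulated counts that held a batch shift and no plate difference. These runs do not test the tie of plate and time, nor the genes counted almost only at 0 h. Named were all 40 members and, of 51 other pathway genes, the largest called rise and fall of each comparison. The members and lists were chosen with earlier results of these data known.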

Additional observations from a re-analysis of the deposited data

Results flagged for a closer look

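Single libraries stood apart from the rest of their group for 13 of 111 member and group pairs tested (11.7%, beside 12.6% of such pairs over all genes), by a gap to the nearest library that is large for the group's range, which chance gives for about 1 in 20 groups. The groups tested were 0 h and the batch 1 libraries at 1 h and 4 h. Those at 8 h and those of batch 2 after hCG were not tested. Values are log2 CPM. The 0 h replicate 3 was the low one for 8 members: Hsp90aa1 (7.86), Hspa4 (5.79), Hspa8 (9.44), Hsp90ab1 (10.1), Fkbp4 (6.34), Hspa9 (6.79), Cct3 (6.77) and Cct7 (7.22). Without it, 12 members were higher and 2 lower at 1 h than at 0 h. Among the batch 1 libraries at 1 h, replicate 9 was low for Chordc1 (2.27), Dnaja2 (7.51) and Stip1 (4.71), and replicate 6 for Ahsa1 (5.01). Among those at 4 h, replicate 8 was high for Hspb1 (3.73).

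The step of Bag3 from 1 h to 4 h differed between the batches (log2 -1.97, batch 2 minus batch 1), by a test of the difference itself, as given above with the libraries it rests on.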

How the results depend on the processing

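Of 4832 values of single members under an alternative, 4447 kept their side of the threshold, with the same direction where called. A further 191 were no longer called, 187 became called and 7 changed sign with a call in one of the fits. Changes of sign in values called in neither fit are among the 4447. The cause was not tested for any of the changes below, unless fewer libraries or genes are named.

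Without the batch term 21 members were higher at 8 h than at 0 h. With the library set term 7 were higher at 1 h than at 0 h, and from 4 h to 8 h 2 rose and 11 fell. That fit gave Hspb8 -0.49 from 1 h to 4 h and Bag3 0.80 from 4 h to 8 h, both against the direction above. In batch 2 alone, with fewer libraries, 6 rose and 0 fell at 1 h, 2 fell by 4 h against 0 h, 7 rose and 3 fell from 1 h to 4 h, and Hspb8 was at -0.47. In batch 1 alone 2 rose from 4 h to 8 h.

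With limma on log2(TPM + 1), 21 were higher and 1 lower at 1 h than at 0 h, 27 and 1 at 8 h, 2 rose from 4 h to 8 h, and the batch difference was called for 0 (7 at an unadjusted p under 0.05). Hspa4 (0.53) and Cct2 (0.61) at 8 h against 0 h changed sign. With log2(TPM + 0.1) the values were 21 and 1, 26 and 2, 2, 6 lower at 8 h than at 1 h, and 0 (6 unadjusted), with Hspa4 at 0.55 and Cct2 at 0.61. TPM at 0 h carry the genes set apart above in their denominator. Neither limma fit called Ahsa1, Chordc1 or Hsf2 at 1 h, Hsf2 at 4 h, or Hsf2, Dnajb4 or Bag2 at 8 h against 0 h. DESeq2 called the batch difference for 1 member.

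With all libraries thinned to 241442 counts, where 27 members passed the filter, edgeR called 0 falls at 1 h (1 unadjusted), 1 at 4 h and 2 at 8 h against 0 h, 3 from 1 h to 4 h, and the batch difference for 0 (3 unadjusted). Over the 10 libraries left out in turn, 1 to 2 members rose from 4 h to 8 h and the batch difference was called for 0 to 2. Members called over the 4 times together numbered 33 to 35, as given above with the libraries. Of further calls, Hspa8 from 1 h to 4 h was lost without 4 h replicate 13, Dnajb2 at 8 h against 1 h without 4 h replicate 11, and Hsp90aa1 from 4 h to 8 h without 8 h replicate 4.

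The replicate numbers do not pair the follicles: over 60 same-numbered pairs the correlation of deviations ran from -0.20 to 0.25, and 8 of 60 follicles correlated best with their own number. With the replicate block edgeR called 1 rise and 0 falls at 1 h (1 unadjusted fall), 7 and 2 at 4 h, 2 and 1 at 8 h against 0 h, and the batch difference for 0 (5 unadjusted).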

Other observations

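Among the 10 batch 1 follicles at 1 h, the coefficient of variation of CPM had a median of 46.7% over 10 stress-inducible members (8.53% to 140%) and 13.7% over 7 CCT subunits (8.87% to 18.2%). These ranges overlap, and the difference was not tested. At 0 h the medians were 28.8% and 28.0%. Many stress-inducible members have low counts, which widens their spread, and the part of counting error was not tested.

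The following libraries were chosen after their values were seen. At 1 h, replicate 7 was the highest of 13 for Dnajb1 (379 CPM), Dnajb6 (458 CPM) and Hspa8 (4037 CPM), and had 115 CPM of Bag3 and 32.6 CPM of Hspa1a. Replicate 13 of that time was the highest for Bag3 (161 CPM), Hspa1b (26.8 CPM) and Dnajb2 (48.2 CPM), and the lowest for Hsph1 (2.68 CPM). At 4 h, replicate 11 was the highest for Hsph1 (352 CPM), Dnajb1 (93.1 CPM), Dnajb6 (303 CPM) and Hspe1 (182 CPM), while replicate 2 was the highest for Hspd1 (1005 CPM), Cct5 (1141 CPM), Cct8 (1094 CPM) and Hspa8 (4520 CPM).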
